A study of Mus musculus with 34 samples.

Results

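The proteasome genes described here are the protein-coding mouse genes whose symbol begins with Psma, Psmb, Psmc, Psmd, Psme, Psmf or Psmg followed by a digit. Of the 46071 genes in the deposited count table, 50 met this rule, and 48 of them were among the 13646 genes that passed the filter on low counts. By role they were 7 alpha-ring subunits, 4 structural and 3 catalytic beta-ring subunits, 3 immunoproteasome subunits, 2 subunits known from testis or thymus, 6 ATPases and 11 non-ATPase subunits of the regulatory particle, 3 chaperones that help assemble its base, 5 activators, 1 inhibitor and 4 chaperones that help assemble the core. The remaining gene, Psmc3ip, carries the name but encodes a recombination protein and not a proteasome subunit. Membership follows from the name alone, though the rule was chosen with earlier results of these data known.

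The proteasome is the barrel-shaped protease that degrades proteins marked with ubiquitin. Its core is built of alpha rings, which gate the entrance, and beta rings, which hold the catalytic sites, and a regulatory particle of ATPases and non-ATPase subunits binds ubiquitinated proteins, unfolds them and feeds them in. Cells stimulated by interferon replace the catalytic subunits with those of the immunoproteasome, and activators such as Psme1 with Psme2, or Psme4, can cap the core in place of the regulatory particle. In wasting muscle the ubiquitin-proteasome system is known as a main route of protein breakdown, and FoxO transcription factors, which insulin and IGF-1 signalling restrain, are known activators of muscle ubiquitin ligase genes.

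RNA was measured in 34 libraries of powdered quadriceps mixed with gastrocnemius from male mice. MIRKO (n = 4) is a muscle-specific knockout of the insulin receptor (IR), MIGF1RKO (n = 5) of the IGF-1 receptor (IGF1R), and MIGIRKO (n = 6) of both. QKO (n = 7) lacks FoxO1, FoxO3 and FoxO4 in addition to both receptors. Each was compared with floxed littermates of its own colony, namely Qlox (n = 2) for QKO, IRIGFRlox (n = 3) for MIGIRKO, IRlox (n = 3) for MIRKO and IGFRlox (n = 4) for MIGF1RKO. Cre was driven by Acta1, the skeletal actin gene of muscle fibers, in MIRKO, MIGIRKO and QKO, and the driver for MIGF1RKO and the mice's ages are not given in the sources used here. Other cells of the muscle keep the floxed genes. All mice were of mixed C57Blk6, C57Blk6J and 129 background. MIGIRKO and IRIGFRlox mice were heterozygous for the variant Nnt gene, and MIRKO, IRlox, QKO and Qlox held both homozygotes and heterozygotes. Colony and genotype go together in a comparison of 1 knockout line with another. The labels do not say outright that each library came from a separate mouse, so p-values measure the spread between libraries.

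Libraries held 1499025 to 7581198 counts, of which the proteasome genes took 0.370% to 0.508%. A count of 0 allows up to 3 counts, or 0.396 to 2 CPM (counts scaled to a common total) depending on the library. Insr was lower in the 3 genotypes in which it was targeted (log2 changes of -1.83 in MIRKO, -1.68 in MIGIRKO and -1.99 in QKO), whereas Igf1r was not lower in MIGIRKO (0.00, adjusted p = 0.993) nor Foxo3 in QKO (0.29, adjusted p = 0.71). Foxo1 and Foxo4 were lower in QKO by -2.98 and -4.57, and Igf1r by -1.09 (adjusted p = 0.0267). That call of Igf1r was lost with library totals (adjusted p = 0.118), with library runs in the fit (0.0874), with the compared groups only (0.255) and without Qlox 1 (0.265), Qlox 2 (0.477) or QKO 1 (0.0554). In MIGF1RKO the change of Igf1r was -0.75 (adjusted p = 0.103). Markers of muscle fibers were lower in MIGIRKO, with 6 of 11 tested genes called and a summed level of 62030 to 97930 CPM against 168000 to 180900 CPM in IRIGFRlox, and markers of immune cells (16 of 16 tested), adipocytes (7 of 7), fibroblasts (4 of 6) and Schwann cells (4 of 6) were called higher. The part of such differences in cell content in the results below was not tested, and in whole muscle fewer cells of a type and less RNA per cell cannot be told apart. The library labelled MIRKO 4 had a muscle marker sum of 82720 CPM, the lowest of its group, and MIRKO 3 at 92190 CPM also lay inside the MIGIRKO range. Earlier results of these data set the libraries labelled MIRKO 4 and MIGIRKO 6 apart from their groups. Whether these labels are exchanged was not tested, the values of both groups rest on them as labelled, and results that turn on them are also given without both.

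In control muscle the immunoproteasome subunits were among the scarcest proteasome transcripts per exon length, and the subunits they replace stood well above them. Over the 12 floxed libraries the mean level per kilobase of exon was highest for Psmd7, a regulatory particle subunit, at 86.7 ± 10.1 CPM per kb (SD). Psme4, the large single-chain activator, followed at 84.8 ± 14.1, with Psmc5, an ATPase, at 83.7 ± 18.2 and Psmd2, a scaffold subunit of the base, at 82.2 ± 9.01. These 4 levels differ by less than their SD. Exon length counts every annotated exon of a gene, and it exceeds the longest coding transcript to unlike degrees. It was 3421 against 1160 bases for Psmb7, 2261 against 1581 for Psmd7 and 8382 against 6491 for Psme4. The order of the genes, with Psmd7 first, thus rests on this measure of length. Among catalytic subunits Psmb7 stood at 51.3 ± 7.98, Psmb5 at 30.3 ± 12.1 and Psmb6 at 30.2 ± 8.19 CPM per kb. Their immunoproteasome counterparts Psmb10, Psmb8 and Psmb9 stood at 3.40 ± 1.05, 0.996 ± 0.49 and 0.391 ± 0.24, and the highest floxed library of each lay below the lowest floxed library of the subunit it replaces. Psme3, an activator of the nucleus, had 28.8 ± 4.08 CPM per kb, against 9.47 ± 1.87 for Psme1 and 7.05 ± 1.10 for Psme2, the partner subunits of the interferon-inducible activator. The assembly chaperones Psmg1 to Psmg4 had means from 0.980 to 6.20 and the inhibitor Psmf1 had 3.95 ± 0.40. None of the 48 genes differed between the 4 floxed groups by edgeR's F test of equal means, in which 0.264% of all tested genes were called. Unadjusted, 6 of them had a p under 0.05, and limma-voom also called 0. The smallest adjusted p among them was 0.303, for Psme3, whose level was 99.0 and 104.7 CPM in Qlox and 71.4 to 73.2 CPM in IRlox. Qlox libraries stood in runs 4 and 5 of the library numbers described below and IRlox in runs 1 to 3. Colony and run cannot be told apart between these groups. IGFRlox libraries had 83.9, 104.6, 83.2 and 78.3 CPM in runs 1, 4, 5 and 6.

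**Figure D1:**
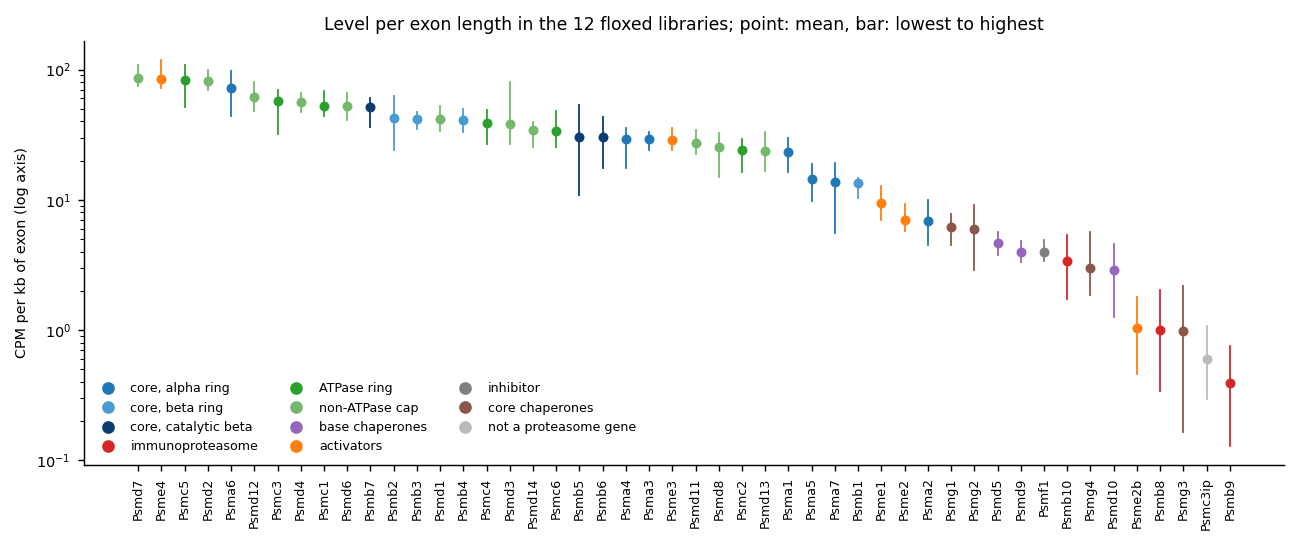
Level of each tested proteasome gene in the 12 floxed libraries, as CPM per kilobase of exon on a log axis, with points for means, bars from the lowest to the highest library and colours for roles. By this length, which counts all annotated exons, Psmd7 and Psme4 lead at 86.7 and 84.8 CPM per kb, and Psmb8 and Psmb9 lie near 0.996 and 0.391.

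Single proteasome genes passed the test in MIGIRKO and in no other knockout against its own controls, and the tests of the differences between these changes are given further on. In MIGIRKO against IRIGFRlox, 9 of the 48 genes (18.8%) passed an adjusted p of 0.05 by edgeR's quasi-likelihood test, where 33.7% of all tested genes did. Psme2 and Psmb8 were the 2 called higher (4.17% of members, 17.0% of all genes), and 7 were called lower (14.6% of members, 16.7% of all genes). In this fit the share called lower was thus near that of all genes, and the share called higher was below it. Without the libraries labelled MIRKO 4 and MIGIRKO 6, 3 of 47 tested members were called higher and 10 lower. Of all 13466 genes tested in that fit, 2176 were called higher and 2336 lower. The members' median log2 change was -0.24 beside 0.04 over all tested genes, and 36 of the 48 changes were below 0. That sign rests on the scaling of the libraries. TMM factors averaged 1.23 in MIGIRKO and 0.876 to 0.965 in the groups other than MIGIRKO and MIRKO, and with library totals and no such factor the median of all genes rose by 0.49 to 0.53 and that of the members to 0.25. Relative to all genes the members' median was -0.27 with TMM factors and -0.28 with library totals. With the runs of library numbers described below as a block it was -0.15, beside 0.04 over all genes. IRIGFRlox had libraries in runs 1, 2 and 6 only, while MIGIRKO had 1 in each of the 6 runs, so run and genotype were not balanced. Library totals gave 12 members called higher and 1 lower, against 2 and 7, and over all genes 6314 higher and 688 lower, against 2321 and 2282. Upper quartile factors gave 4 higher and 5 lower.

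In MIRKO against IRlox none of the 48 genes was called, where 1.25% of all genes were, and 6 members had an unadjusted p under 0.05 by edgeR. In MIGF1RKO against IGFRlox the count was again 0, beside 0.616% of all genes and 2 members at an unadjusted p under 0.05. In QKO against Qlox it was 0, beside 0.506% of all genes and 5 members at an unadjusted p under 0.05. DESeq2 and limma-voom also called 0 in these 3 comparisons, where DESeq2 gave 3 members no adjusted p in QKO. The members' medians were -0.13 in MIRKO, 0.02 in MIGF1RKO and 0.12 in QKO, beside 0.03, 0.00 and 0.04 over all genes. With library totals the MIRKO median was 0.13, while that of all genes rose by 0.27. With the library runs as a block the MIRKO median was -0.03 and the QKO median -0.12, and within runs 4 and 5, each with 1 or more libraries of both groups, the QKO medians were -0.10 and -0.21.

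**Figure D2:**
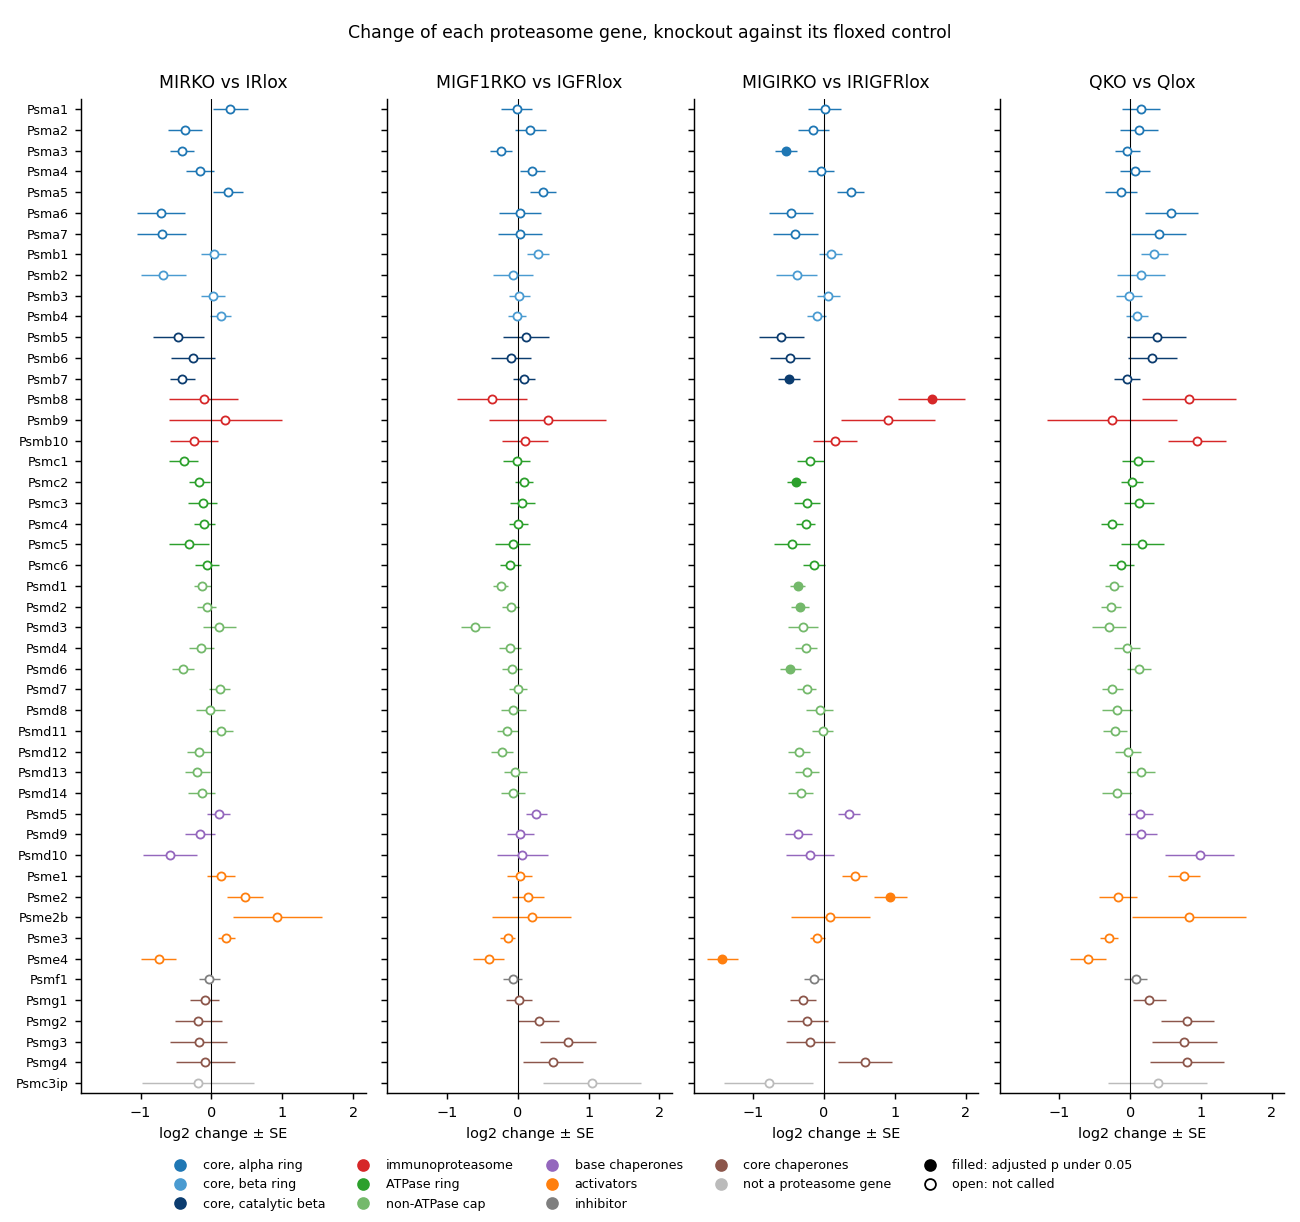
Log2 change of each tested proteasome gene with its SE in the 4 comparisons of a knockout with its floxed control, with genes grouped and coloured by role and filled points for an adjusted p under 0.05. Filled points stand in MIGIRKO only, 7 on the left and 2 on the right of 0, with Psme4 farthest left at -1.43 and Psmb8 farthest right at 1.52, both on the TMM scale.

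Psme4, a single-chain activator that caps the core without ATP and is known for histone breakdown in sperm, fell more than any other of the 48 genes in MIGIRKO. The gene (ENSMUSG00000040850) lies on chromosome 11 from 30771726 to 30880361 in GRCm38. Its level was 629, 625.8 and 843.3 CPM in the 3 IRIGFRlox libraries, and in the 6 MIGIRKO libraries the lowest was 177.5, the median 245.3 and the highest 392.2. All MIGIRKO libraries lay below all IRIGFRlox libraries, and the highest of them was the library labelled MIGIRKO 6. The means were 258.8 ± 72.1 and 699.4 ± 124.7 CPM (SD), 2.70-fold lower in MIGIRKO, a log2 change of -1.43 ± 0.22 (SE, adjusted p = 1.42e-05). The call held under all 21 other settings tried in this comparison, with library totals too (-0.94).

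Psme4 was also at lower levels in the other knockouts, without passing the test. MIRKO libraries had 413.2, 534.4, 489.8 and 210.4 CPM and IRlox libraries 606.6, 814.2 and 652.7, with no overlap (-0.75 ± 0.25, adjusted p = 0.116). The 210.4 CPM belong to the library labelled MIRKO 4. QKO libraries ran from 282.2 through a median of 452.7 to 543.5 CPM, below both Qlox libraries at 701.5 and 628.4 (-0.60 ± 0.25, adjusted p = 0.363). MIGF1RKO libraries had 531.7, 520.6, 429.6, 640.5 and 722.9 CPM, overlapping IGFRlox at 617.7, 675.2, 991.5 and 744.8 (-0.41 ± 0.22, adjusted p = 0.532). When each knockout was set against all 12 floxed libraries, Psme4 was called lower in MIRKO (-0.79, adjusted p = 0.00536) and in QKO (-0.70, adjusted p = 0.00487), a comparison in which the control libraries of other colonies enter. The change in MIGIRKO exceeded that in MIRKO by -0.69 ± 0.34 (adjusted p = 0.484), and by -1.06 when the libraries labelled MIRKO 4 and MIGIRKO 6 were left out (adjusted p = 0.0258).

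Psme2 and Psme1, whose proteins together form the interferon-inducible activator ring, were higher in MIGIRKO, Psme2 past the threshold and Psme1 short of it. Psme2 (ENSMUSG00000079197, chromosome 14, 55587441 to 55591113) was at 11.1, 10.1 and 10.3 CPM in IRIGFRlox and at 15.4, 20.2 and 24.8 (lowest, median, highest) in MIGIRKO. The groups did not overlap, and Psme2 rose 1.92-fold (log2 change 0.94 ± 0.24, adjusted p = 0.00276), a call that held under all 21 other settings. Psme1 (ENSMUSG00000022216, chromosome 14, 55578123 to 55581529) was at 21.8, 23.3 and 23.7 CPM in IRIGFRlox and 26.7, 30.8 and 34.5 in MIGIRKO, again without overlap (0.43 ± 0.18, adjusted p = 0.061). It was called by DESeq2 (adjusted p = 0.041), limma-voom (0.0491) and when the libraries labelled MIRKO 4 and MIGIRKO 6 were left out (0.0257). In QKO, Psme1 had the smallest adjusted p of all members: the 7 libraries ran from 18.9 to 30.9 CPM and both Qlox libraries stood at 15.4, a difference of 0.76 ± 0.22 (adjusted p = 0.142). That adjusted p was 0.0445 when MIRKO 4 and MIGIRKO 6, which are in neither group but enter the estimate of the spread, were left out. Psme2 reads may be shared with Psme2b, an intronless copy that matches it at 99.4% over 794 bases and was itself at 0.970 CPM in MIGIRKO (0.09, adjusted p = 0.925).

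Psme3, the third relative of this family, changed by -0.09 in MIGIRKO (adjusted p = 0.545), with 77 to 87.6 CPM in IRIGFRlox and 67.1 to 88.0 in MIGIRKO. With library totals it was 0.40 higher (adjusted p = 0.0112).

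**Figure D3:**
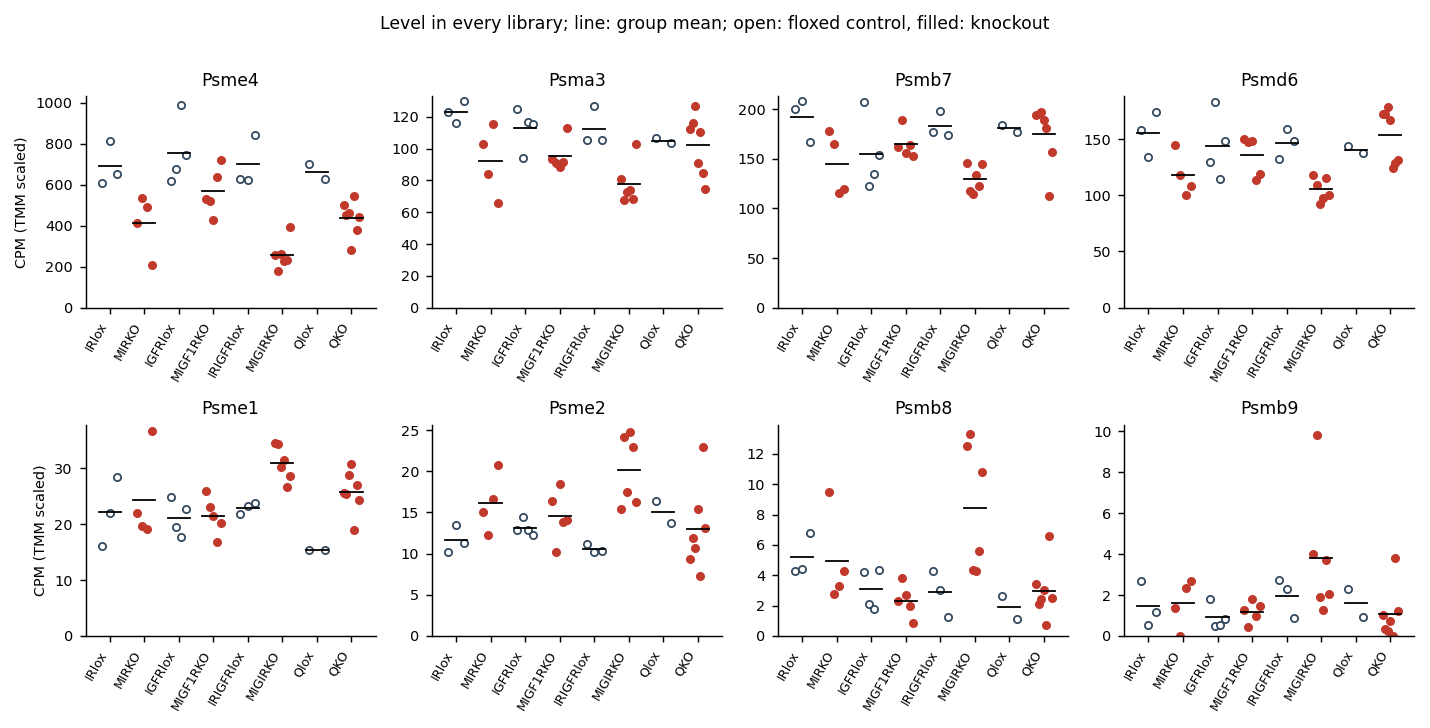
CPM on the TMM scale in every library of the 8 groups for 8 proteasome genes, with filled points for knockout libraries, open points for floxed controls and a line at each group mean. Psme4 falls from a mean of 699.4 CPM in IRIGFRlox to 258.8 in MIGIRKO, and Psme2 rises from 10.1 to 11.1 CPM in the IRIGFRlox libraries to 15.4 to 24.8 in MIGIRKO.

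The promoters of the 4 genes with the clearest changes in activator and immunoproteasome genes are shown because Psme4 moved one way and Psme1, Psme2 and Psmb8 the other. Each sequence runs from 250 bases before the RefSeq start to 30 bases from it (GRCm38.p6), with the searched motifs in capitals. Psme4 is at chr11:30771525-30771804 (plus strand), Psme1 at chr14:55578244-55578523 (plus), Psme2 at chr14:55591072-55591351 (minus) and Psmb8 at chr17:34197945-34198224 (plus).
Psme4: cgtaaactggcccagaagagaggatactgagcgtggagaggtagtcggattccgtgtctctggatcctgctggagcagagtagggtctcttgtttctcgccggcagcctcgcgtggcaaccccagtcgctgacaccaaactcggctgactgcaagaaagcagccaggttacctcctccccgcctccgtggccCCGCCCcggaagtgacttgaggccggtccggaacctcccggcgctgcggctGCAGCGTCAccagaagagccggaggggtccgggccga
Psme1: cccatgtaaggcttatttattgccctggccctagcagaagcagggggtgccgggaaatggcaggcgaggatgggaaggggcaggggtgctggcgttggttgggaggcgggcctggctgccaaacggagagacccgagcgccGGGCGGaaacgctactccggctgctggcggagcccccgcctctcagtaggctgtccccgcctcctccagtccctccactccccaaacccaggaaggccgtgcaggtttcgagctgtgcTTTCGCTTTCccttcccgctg
Psme2: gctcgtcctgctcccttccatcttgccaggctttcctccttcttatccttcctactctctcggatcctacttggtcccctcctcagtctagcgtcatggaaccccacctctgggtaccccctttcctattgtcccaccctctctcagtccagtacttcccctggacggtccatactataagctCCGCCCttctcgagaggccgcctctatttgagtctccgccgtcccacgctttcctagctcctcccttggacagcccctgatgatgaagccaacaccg
Psmb8: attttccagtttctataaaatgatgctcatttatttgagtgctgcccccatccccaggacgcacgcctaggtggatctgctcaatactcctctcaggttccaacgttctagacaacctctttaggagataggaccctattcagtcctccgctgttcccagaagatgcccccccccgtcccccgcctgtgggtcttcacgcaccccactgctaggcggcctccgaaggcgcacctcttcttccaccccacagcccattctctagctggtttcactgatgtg

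The capitals mark matches, on either strand, to TGACNNNGC (the element of Nfe2l1, a factor known to induce proteasome genes), GTAAACA (FoxO), GAAA, any 2 bases and GAAA again (the interferon response motif), CCAAT (NF-Y) or GGGCGG (Sp1), none of which overlap another in these 4 sequences. Psme4 held TGACNNNGC and GGGCGG, both on the reverse strand. Psme1 held the interferon response motif and GGGCGG, Psme2 held GGGCGG and Psmb8 held none of the 5. RefSeq promoters were found for 42 of the 50 members. TGACNNNGC occurred in 6 of them (14.3%: Psmb5, Psmb6, Psmc6, Psmd9, Psmd12 and Psme4) and in 14.0% of the promoters of 27025 genes, and GTAAACA in 0 and in 4.05%. The interferon response motif occurred in 5 (11.9%: Psmb3, Psmd4, Psmd9, Psme1 and Psmg4) against 3.99% of all, CCAAT in 15 (35.7%) against 41.1%, and GGGCGG in 23 (54.8%) against 38.2%. The RefSeq start lies 49 bases from the annotated gene start for Psme4, 12 for Psme2, 371 for Psme1, 474 for Psmb8 and 58777 for Psmd9. The counts of motifs cover the full RefSeq windows, which run further past the start than the stretches printed. Such a match describes letters in a window and shows no binding.

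Of the 14 constitutive subunits of the alpha and beta rings, 2 were called lower in MIGIRKO and none higher, beside 16.7% and 17.0% of all genes, with a median log2 change of -0.27. Their summed level was 751.8 to 1011 CPM against 1009 to 1064 in IRIGFRlox. Within library runs 1, 2 and 6 it was 982.3, 786.1 and 1011 CPM in MIGIRKO against 1029, 1064 and 1009 in IRIGFRlox. In runs 4 and 5, which hold no IRIGFRlox library, it was 845.6 and 751.8 CPM in MIGIRKO. The floxed libraries of those runs had 756.3 and 816.8 CPM in IGFRlox and 905.3 and 891.3 in Qlox. The part of the runs in this difference was not tested. Psma3, an alpha-ring subunit, was at 105.5, 127 and 105.2 CPM in IRIGFRlox and at 67.8, 73.2 and 103 (lowest, median, highest) in MIGIRKO. Its groups did not overlap, and the highest MIGIRKO value came from the library labelled MIGIRKO 6. Psma3 fell by 0.53 on the log2 scale (SE 0.16, adjusted p = 0.00862), with library totals by 0.04 (adjusted p = 0.822).

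Psmb7, which carries the trypsin-like site, was at 177.1, 198.2 and 173.9 CPM in IRIGFRlox and 114.4, 128 and 146.2 in MIGIRKO, with every knockout library below every control. It fell by 0.49 (SE 0.16, adjusted p = 0.0158), and with library totals the change was -0.0016. Psmb5, which carries the chymotrypsin-like site, was at 25.2, 38.5 and 48.1 CPM against 16.9, 23.0 and 37.5, and its overlapping groups gave -0.60 ± 0.32 (adjusted p = 0.149). Psmb6, which carries the caspase-like site, was at 62.2, 70.6 and 81.1 CPM against 35.5, 53.7 and 65.6 (-0.48 ± 0.28, adjusted p = 0.196), also overlapping. The 4 structural beta subunits had changes from -0.39 to 0.09 with none called. Without IRIGFRlox 2 the calls of Psma3 (adjusted p = 0.0674), Psmb7 (0.0769) and the cap subunits Psmd6 (0.0678), Psmc2 (0.0667) and Psmd2 (0.103) were lost, and the members called in MIGIRKO numbered 4 in all.

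The regulatory particle, the cap that recognises ubiquitin, had 4 of 17 subunits called lower in MIGIRKO and none higher, beside the same shares of all genes. Without the libraries labelled MIRKO 4 and MIGIRKO 6, Psmc4, Psmd12 and Psmd14 were called lower as well. In that fit 2336 of 13466 genes were called lower. All 17 changes were below 0 with TMM factors (-0.47 to -0.02, median -0.26), 16 with upper quartile factors, and none with library totals (median 0.23). The summed level was 2006 to 2486 CPM in MIGIRKO (2166 ± 175, SD) and 2577 to 2739 in IRIGFRlox (2638 ± 87.9), without overlap, and the highest MIGIRKO value came from the library labelled MIGIRKO 6. Muscle markers summed to lower levels in the same libraries, and their part in this difference was not tested.

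Psmd6, a lid subunit, was at 132.2, 158.6 and 148.2 CPM in IRIGFRlox and 92.0, 104.8 and 118 in MIGIRKO. It fell without overlap by 0.47 (SE 0.15, adjusted p = 0.0123). Psmd1, the largest scaffold of the base, was at 318, 265.2 and 303.1 CPM against 213, 215.2 and 260.6 (log2 change -0.37 ± 0.11, adjusted p = 0.00947), also without overlap. Psmd2, the other scaffold, was at 362.5, 339.8 and 291.3 CPM against 237.8, 262.3 and 286.8. Psmd2 fell by 0.34 (SE 0.12, adjusted p = 0.0362) without overlap. Psmc2, an ATPase, was at 148.2, 141.8 and 132.2 CPM against 95.4, 106.5 and 125.9 (-0.39 ± 0.14, adjusted p = 0.0248), again without overlap. With library totals all 4 turned to small positive values (0.02 for Psmd6, 0.12 for Psmd1, 0.16 for Psmd2 and 0.10 for Psmc2). The call of Psmc2 was lost with the runs of library numbers described below as a block (-0.30, adjusted p = 0.0525). The calls of Psmd2 and Psmc2 held in 13 of 21 other settings each, and those of Psmd6 and Psmd1 in 19. Psmd11, a lid subunit known to promote proteasome assembly in stem cells, was at 143.1, 162.4 and 196.1 CPM in IRIGFRlox and 124.5, 168.4 and 209.1 in MIGIRKO, a change of -0.02 (adjusted p = 0.94), and of 0.48 with library totals (adjusted p = 0.0213).

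In MIGF1RKO the smallest adjusted p of a member was that of Psmd3, a lid subunit, at 0.201. Its change of -0.60 ± 0.20 involved IGFRlox 2 at 400.2 CPM, where the other 3 controls stood at 160.4 to 175.6 and the knockout libraries at 111.6 to 191.1.

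**Figure D4:**
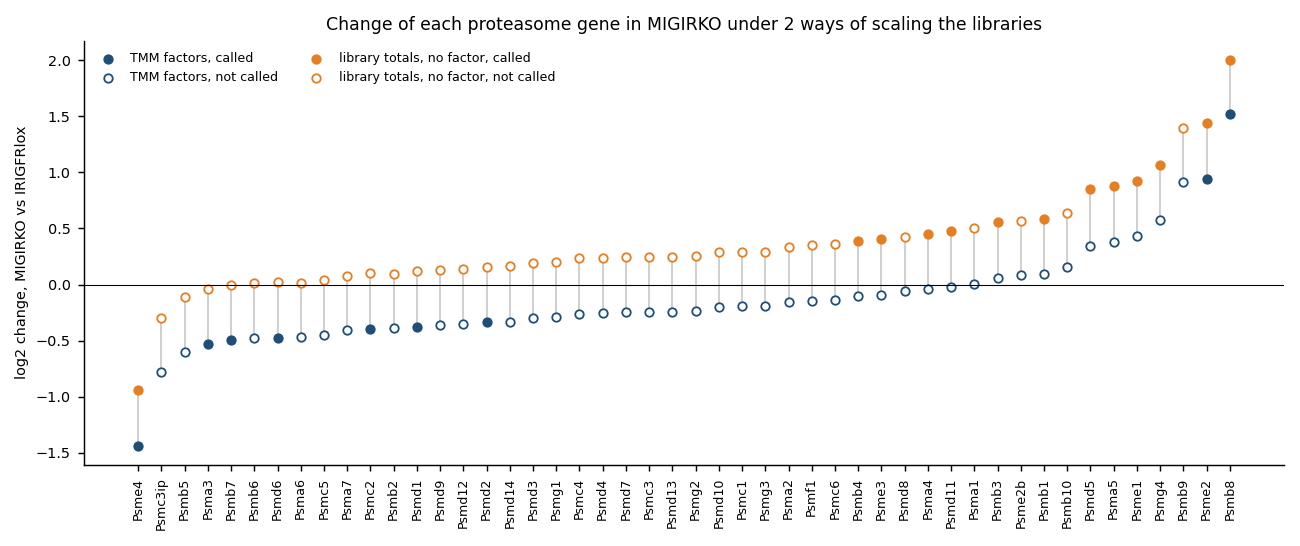
Log2 change of each tested proteasome gene in MIGIRKO against IRIGFRlox with TMM factors and with library totals and no factor, with genes ordered by the first. Library totals raise the median from -0.24 to 0.25, and Psme4 stays below 0 (-1.43 and -0.94) while Psme2 and Psmb8 stay above it.

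The immunoproteasome genes were scarce and rose in part. Psmb8 (ENSMUSG00000024338, chromosome 17, 34197721 to 34201454), the inducible counterpart of Psmb5, was at 4.27, 3.06 and 1.28 CPM in IRIGFRlox and at 4.26, 8.20 and 13.3 (lowest, median, highest) in MIGIRKO, from 6 to 28 and from 27 to 88 counts per library. The lowest MIGIRKO library lay just under the highest control, so the groups overlapped by 1 library. Psmb8 rose 2.87-fold (log2 change 1.52 ± 0.47, adjusted p = 0.0136), and the call was lost without IRIGFRlox 3 (adjusted p = 0.0911).

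Psmb9, the counterpart of Psmb6, was at 2.75, 2.30 and 0.856 CPM against 1.29, 2.89 and 9.82, and Psmb10, the counterpart of Psmb7, at 7.63, 7.46 and 6.84 against 4.00, 7.98 and 13.4. Both overlapped widely, and neither was called (0.91 ± 0.66, adjusted p = 0.297, and 0.15 ± 0.31, adjusted p = 0.729). In MIRKO the changes of Psmb8, Psmb9 and Psmb10 were -0.11, 0.19 and -0.25, in MIGF1RKO -0.36, 0.42 and 0.10, and in QKO 0.83, -0.26 and 0.94, with none called. The MIGIRKO change of Psmb8 exceeded that in MIRKO by 1.63 ± 0.68 (adjusted p = 0.391).

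Because a ratio of 2 genes in a library does not depend on its scaling, each inducible subunit was also set against the subunit it replaces. A ratio can still differ between the runs of library numbers described below, which was not tested. In the F test over runs Psmb6 was called (adjusted p = 8.64e-06) and Psmb5 was not (0.131). In runs 4 and 5, where IRIGFRlox had no library, Psmb6 deviated by -0.58 and -0.52 and Psmb5 by -0.47 and -0.40 (log2). Psmb9 deviated by -0.96 and 0.48 there and Psmb8 by -0.63 and -0.24. Psmb8 counts were 5.49% to 9.03% of Psmb5 counts in IRIGFRlox and 25.3% to 44.1% in MIGIRKO, with a median of 30.8%. No library overlapped, and the mean log2 ratio differed by 2.14 in a two-sided exact permutation test with p = 0.0238, the smallest that 6 against 3 libraries allow, and 0.286 after adjustment over 12 ratio tests. For Psmb9 to Psmb6 the ratio was 1.54% to 3.48% in IRIGFRlox and 3.23% to 16.4% in MIGIRKO (difference 1.23, exact permutation p = 0.0714, adjusted 0.317). For Psmb10 to Psmb7 it was 3.81% to 4.35% and 3.05% to 11.5% (0.56, exact permutation p = 0.143, adjusted 0.343). Among the other 9 tests none had an adjusted p under 0.05, and the designs of 4 against 3 and 7 against 2 cannot reach an unadjusted p below 0.0571 and 0.0556. With all 12 floxed libraries as controls of MIGIRKO the differences were 1.41 for Psmb8 to Psmb5 (adjusted p = 0.00388, exact permutation test), 1.36 for Psmb9 to Psmb6 (0.0259) and 0.87 for Psmb10 to Psmb7 (0.0213). Control libraries of other colonies enter there. Their Psmb8 to Psmb5 ratios were 13.7% to 23.7% in IRlox, 11.0% to 16.0% in IGFRlox and 6.36% and 27.9% in Qlox. Qlox 1, at 27.9%, lay inside the MIGIRKO range.

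Markers of immune cells, which carry much immunoproteasome, were also higher in MIGIRKO. Of 24 listed markers 16 were tested, all 16 were called higher in MIGIRKO (median log2 change 2.22), and their list summed to 902.6 to 2480 CPM against 260.5 to 411.3 in IRIGFRlox. The immune cell markers Lyz2, Cd74 and Csf1r were found in all 34 libraries. The T cell markers Cd3e and Cd3g, the B cell markers Cd79a and Ms4a1, the natural killer marker Nkg7 and the neutrophil markers S100a8 and S100a9 were not tested. These 7 genes had 16 to 89 counts each in all libraries together. In QKO the same sum ran from 380.3 to 3689 CPM with a median of 538.3, and the library with 3689, QKO 6, also had the highest QKO values of Psmb8 (6.61 CPM), Psmb9 (3.802) and Psme2 (23.0). Genes of antigen presentation by MHC class I and of the interferon response also rose in MIGIRKO, 12 of 20 with none lower (median 1.04), among them H2-D1 (1.28), B2m (1.36) and H2-K1 (1.03). In MIRKO the immune marker sum was 714.8 to 1563 CPM against 404.5 to 502.2 in IRlox, with none of the 16 called. Psmb8, Psmb9 and Psmb10 changed there by -0.11, 0.19 and -0.25. Among MIGIRKO libraries, MIGIRKO 5 had the highest sum (2480 CPM) with Psmb8 at 5.58 CPM. MIGIRKO 2 had a sum of 1150 CPM and the highest Psmb8 (13.3 CPM). The part of immune cell content in the levels of Psmb8, Psme2 and Psme1 was not tested.

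The core assembly chaperones Psmg1 to Psmg4 and the inhibitor were not called in any of the 7 comparisons. Psmg1, Psmg2 and Psmg3 changed in MIGIRKO by -0.29 ± 0.18, -0.23 ± 0.29 and -0.19 ± 0.34 and Psmg4 by 0.58 ± 0.39 (adjusted p = 0.252), and in QKO Psmg2, Psmg3 and Psmg4 had differences of 0.80, 0.76 and 0.80 with adjusted p of 0.416 to 0.569. Psmg4 ran from 1.28 to 2.29 CPM in IRIGFRlox and 1.81 to 3.37 in MIGIRKO, where counting error is large, and it was called with library totals (1.06, adjusted p = 0.0285) and against all 12 floxed controls (0.77, 0.0184). Psmg2 was called higher in QKO than in MIGIRKO with the library runs as a block (0.42, adjusted p = 0.0211), without QKO 6 (0.59, 0.0434) and without QKO 5 and QKO 6 (0.66, 0.0276). Psmf1, which blocks the core's entrance in vitro, had group means of 23.2 to 26.4 CPM in all 8 groups and a MIGIRKO change of -0.15 ± 0.14 (adjusted p = 0.435). Of the base chaperones Psmd5, Psmd9 and Psmd10, none was called in MIGIRKO against IRIGFRlox (0.35, -0.36 and -0.20). Psma8, the alpha subunit of the testis, had 29 counts in all over 18 of 34 libraries, and Psmb11, the catalytic subunit of the thymus, had 6 counts over 4 libraries. Neither was tested.

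QKO, which lacks the FoxO factors as well, was set directly against MIGIRKO. Of the 48 members 11 were called (22.9%, beside 30.2% of all genes), 8 higher in QKO (16.7%, beside 16.2%) and 3 lower (6.25%, beside 14.0%), with a median of 0.13 beside -0.03 over all genes. The share called higher was thus close to that of all genes. With library totals 1 was called higher and 15 lower, and over all genes 754 higher and 5895 lower against 2204 and 1912. The MIGIRKO libraries are those of the comparison with IRIGFRlox, so the 2 sets of values share them and are given side by side only.

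Psme4 was 0.76 ± 0.18 higher in QKO than in MIGIRKO (adjusted p = 0.00198), at a median of 452.7 against 245.3 CPM, with the ranges overlapping between 282.2 and 392.2. In MIGIRKO against IRIGFRlox it had changed by -1.43. Psmd6 was at 124.2, 166.7 and 178.7 CPM (lowest, median, highest) in QKO, above all MIGIRKO libraries (92.0 to 118), a difference of 0.54 ± 0.11 (adjusted p = 0.000616) beside -0.47 in the other comparison. Psmb7 was at 112.2, 188.9 and 197.6 CPM in QKO, with 1 library under the MIGIRKO range of 114.4 to 146.2, and was 0.43 higher (adjusted p = 0.0104) beside -0.49. Psma3 was 0.39 higher (adjusted p = 0.0172) beside -0.53, and Psmd2 0.27 higher (0.0398) beside -0.34. With library totals none of these 5 was called higher: Psme4 differed by 0.36 (adjusted p = 0.0843), Psmd6 by 0.14 (0.283), Psmb7 by 0.02 (0.903), Psma3 by -0.01 and Psmd2 by -0.14.

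Psmd9, a base chaperone, was 0.53 higher in QKO than in MIGIRKO (adjusted p = 0.00867), with medians of 34.2 and 24.0 CPM and overlapping ranges. Psmd12, a lid subunit, was 0.38 higher (0.0222), and -0.03 with library totals. Psmc3ip, the recombination protein, was 1.59 higher (0.0136) on 1 to 12 counts per library in MIGIRKO and 2 to 32 in QKO. Its level was 4.43 CPM in QKO 1 and 5.67 in QKO 7 against 0.698 to 1.88 in the other QKO libraries, and the call was lost without QKO 1 (adjusted p = 0.0511) or QKO 7 (0.0802). The 3 called lower were Psmb8 (-1.38 ± 0.36, adjusted p = 0.00393), Psmb9 (-1.54 ± 0.55, adjusted p = 0.0315) and Psme2 (-0.60 ± 0.18, adjusted p = 0.0112). Psmb8 in QKO ran from 0.727 through a median of 2.48 to 6.61 CPM, overlapping MIGIRKO (4.26 to 13.3) through QKO 6 and the lower MIGIRKO libraries. Psme2 ran from 7.27 through 11.9 to 23.0 CPM against 15.4 to 24.8, with overlap. The calls of Psmb8 and Psme2 held under all 24 other settings tried here, that of Psmb9 in 14 and that of Psmd2 in 11. Without MIGIRKO 2 the call of Psmb9 was lost (adjusted p = 0.174). The count of called members was 7 without QKO 3 and 17 when the runs of library numbers described below entered as a block.

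Whether the changes against the own colony differed was tested as an interaction. For the QKO change minus the MIGIRKO change none of the 48 members was called, beside 5.76% of all genes, with 5 members at an unadjusted p under 0.05 in edgeR, 1 called by DESeq2 (Psme2) and 0 by limma-voom. The smallest adjusted p was 0.0562, for Psme2 (-1.11 ± 0.35), and Psme4 had 0.83 ± 0.35 (adjusted p = 0.163, and 0.02 with a difference of 0.99 when MIRKO 4 and MIGIRKO 6, as labelled, were left out). For the MIGIRKO change minus the MIRKO change 0 members and 0% of all genes were called by edgeR, with 1 member and 1421 genes at an unadjusted p under 0.05. DESeq2 called 39 genes and limma-voom 0 there, with no member among them, but 30 of the 48 members had no adjusted p from DESeq2. A higher level in QKO than in MIGIRKO is therefore not shown to be a smaller change against the own controls, except for Psme4 in the fit without those 2 libraries and Psmd6 in the fit without QKO 5 and QKO 6. Psme2, which was lower in QKO than in MIGIRKO, was called for the difference of changes in 8 of the other settings.

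The titles carry library numbers in 6 runs of nearly consecutive numbers, and levels of some proteasome genes differed between these runs across genotypes. An F test over the runs beside the groups, chosen after seeing the data, called 14 of 48 members (29.2%) and 10.6% of all genes. Psma7, an alpha-ring subunit, had medians of 55.4, 47.0, 42.4, 26.4, 23.9 and 37.4 CPM in runs 1 to 6, a spread of 1.24 on the log2 scale beside the group effects. Psma6 had 110.9, 110.2, 103.5, 51.6, 53.3 and 81.6 CPM, so runs 4 and 5 were low for both. Psma1 ran the other way, with log2 deviations of -0.28 and -0.33 in runs 1 and 2 and 0.37 in run 5. The called members had a median exon length of 2152 bases against 2857 in the others, and the called genes among all tested had 3266 against 4579. What the runs stand for is not given in the sources used here. The adjusted p for the runs of the 9 genes called in MIGIRKO against IRIGFRlox was 0.942 for Psma3, 0.874 for Psmd1, 0.803 for Psme2, 0.653 for Psme4, 0.635 for Psmd2, 0.369 for Psmd6, 0.293 for Psmb8, 0.133 for Psmb7 and 0.112 for Psmc2.

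Within runs that held both MIGIRKO and IRIGFRlox, each with 1 library a group and so with no test, Psme4 differed by -1.29, -1.82 and -1.10 in runs 1, 2 and 6. Psme2 differed by 0.45, 1.22 and 0.65, and Psmb8 by 1.46, 1.98 and 2.73. Psma3 differed by -0.39, -0.90 and -0.03, where the last includes the library labelled MIGIRKO 6. The members' median was -0.17, -0.24 and 0.07. In runs 4 and 5, which hold QKO and Qlox, Psme4 differed by -0.37 and -0.73, and in run 2, with MIRKO and IRlox, by -0.98.

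**Figure D5:**
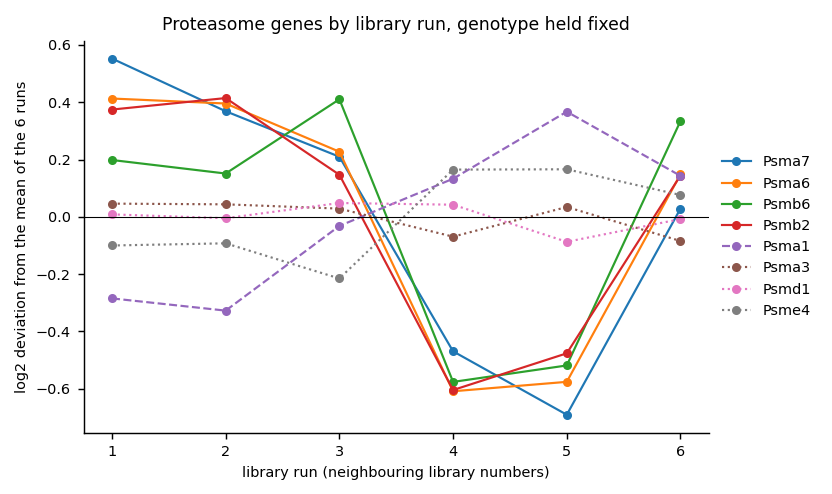
Log2 deviation of proteasome genes from the mean of the 6 runs of library numbers, beside the group effects. Psma7 and Psma6 span 1.24 and 1.02 between runs, with runs 4 and 5 low, while Psme4 spans 0.38.

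Other genes of the ubiquitin-proteasome system were taken from lists, with counts on the TMM scale. Of 22 tested regulators and partners of the proteasome, 2 were called higher and 6 lower in MIGIRKO (median -0.27). All counts for MIGIRKO stand beside 17.0% of all genes called higher and 16.7% lower, and those for QKO against MIGIRKO beside 16.2% and 14.0%. Ecpas, a scaffold that binds the proteasome to motors and membranes, fell by 1.13 (SE 0.21, adjusted p = 0.000101), Ubqln4, a shuttle for ubiquitinated proteins, by 0.62 (adjusted p = 0.000209) and Ngly1, the deglycosylase that processes Nfe2l1, by 0.65 (adjusted p = 0.00117). Ecpas was called in all 21 other settings, and the calls of Ubqln4 and Ngly1 were lost with library totals (-0.13 and -0.16). Nfe2l1 itself, which drives proteasome genes when the proteasome is impaired, changed by -0.29 (adjusted p = 0.137), and its relative Nfe2l2, the antioxidant regulator, rose by 0.69 (adjusted p = 0.00651). Against MIGIRKO, QKO had 6 of the 22 higher and 2 lower, with Ecpas 1.03, Ube3c 0.59 and Ubqln4 0.46 higher. In QKO against Qlox only Zfand5, a proteasome-binding protein known from muscle atrophy, was called among the 22 (-0.82 ± 0.19, adjusted p = 0.0393), in 12 of 21 other settings too.

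Of 14 genes of the p97 segregase, which extracts proteins for degradation, 2 were higher and 3 lower in MIGIRKO. The cofactors Ubxn2a (-1.29, adjusted p = 4.86e-06), Ubxn1 (-0.66, 0.00487) and Faf1 (-0.42, 0.0117) fell. With library totals the calls of Ubxn1 (-0.17) and Faf1 (0.07) were lost. In QKO against MIGIRKO 4 were higher and 3 lower, with Ubxn2a 1.03, Vcp (p97 itself) 0.54 and Faf1 0.47 higher. Of 13 muscle ubiquitin ligases 1 was higher and 4 lower in MIGIRKO. Fbxo40, a ligase for an insulin receptor substrate, fell by 1.55 (adjusted p = 5.4e-07), Fbxo32 (atrogin) by 1.30 (0.000535) and Trim63 (MuRF) by 1.06 (0.019), while Fbxo30 rose by 0.62 (0.00393). Of these ligases Fbxo40 was 2.47-fold higher in QKO than in MIGIRKO (adjusted p = 3.45e-07), and Fbxo30 differed by -0.57 (0.000863). For the QKO change minus the MIGIRKO change, Fbxo40 was the 1 ligase of 13 called, higher by edgeR (adjusted p = 0.0166), beside 5.76% of all genes called. Of 18 chaperones 3 were higher and 1 lower in MIGIRKO, with Hspa1a at 1.70, Hspa1b at 1.62 and Hsp90aa1 at 0.86. The calls of Hspa1b and Hsp90aa1 were lost without IRIGFRlox 1 (adjusted p = 0.0518 and 0.0685) or IRIGFRlox 2 (0.0812 and 0.0882).

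Some counts may be shared with other genes. Transcripts of 12 of the 50 members matched another gene at 95% identity or more over at least 100 bases, among them Psma3, whose longest match was a processed pseudogene with 96.5% over 772 bases, and Psmd2, Psmd8, Psmd11, Psmb5 and Psmc1. Psmb5 shares 12.1% of its exon length with Mir686 on the same strand. On the opposite strand Psmd9 shares 25.5% of its exon length with Gm26745 and Psmc3ip 21.2% with Mlx. Psmb8 shares 14.7% with Gm20496, Psmb7 11.8% with Nek6 and Psmb9 5.8% with Tap1, also on the opposite strand. The strand setting of the counting is not given in the sources used here.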

How the data were processed

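RNA was extracted with Trizol and sequenced from stranded, directional libraries, per the labels' protocols. The authors deposited raw counts per Ensembl gene. STAR, featureCounts and build GRCm38.p4 are named in the submitters' processing notes, while their versions, the annotation release and the strand setting are not given in the sources used here. Of 46071 IDs, 45143 matched a symbol in GENCODE M21, which gave names, exon lengths and positions. All columns of the table were used, and it holds 0 entries that name no gene. Groups came from the labels.

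In R 4.3.3, edgeR 4.0.16 (filterByExpr, TMM factors, robust quasi-likelihood fit with 1 mean per group over all 34 libraries) tested 13646 genes in 7 comparisons. Adjusted p-values are Benjamini-Hochberg over all of them, called under 0.05. CPM uses library totals over the 13646 tested genes multiplied by TMM factors, and counting error is large for genes with few counts. Log2 changes carry SE, and CPM carries SD. Ratios of counts used a pseudocount of 0.5 and exact permutation tests. Alternatives used DESeq2 1.42.0, limma-voom (limma 3.58.1), other scalings, filters and controls, library runs as a block, and leaving out libraries. Promoter sequences are RefSeq's for GRCm38.p6. Python 3.11.15 drew the figures. The procedure was tested on simulated counts.

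The members, the gene lists and the alternatives were chosen with earlier results of these data known. Named genes are the up to 8 called members in each direction with the smallest adjusted p per comparison (or the 1 smallest if none was called), the catalytic, inducible, activator, inhibitor, core chaperone and untested members, Psmd11, the targeted genes, Nfe2l1, Nfe2l2 and up to 3 called genes of each list. The remaining base chaperones, Psme2b, Trim63 and the members with run differences were named after their values were seen. Of the other marker lists in MIGIRKO, 0 of 7 endothelial, 1 of 4 satellite cell and 0 of 5 red blood cell genes were called. The result of 1 further gene list is not reported here.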

Additional observations from a re-analysis of the deposited data

Results flagged for a closer look

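In groups of 4 to 10 libraries, 14 of 155 checks over 31 measures found 1 library far from the rest by Dixon's criterion, which chance alone meets in about 1 group in 20. Psma3 was at 112.9 CPM in MIGF1RKO 5, where the nearest other library had 93.7. In the library labelled MIGIRKO 6, Psma3 was at 103 CPM (nearest 80.6). Psmb9 stood at 9.82 CPM in MIGIRKO 2 (nearest 4.01) and at 3.802 CPM in QKO 6 (nearest 1.24). Psmd11 was high in MIRKO 3 at 229.3 CPM (nearest 167) and in IGFRlox 3 at 218.8 CPM (nearest 171). Psmd3 was at 400.2 CPM in IGFRlox 2 (nearest 175.6). Psmd9 was high in IGFRlox 3 at 34.8 CPM (nearest 25.6) and low in MIGIRKO 3 at 19.9 CPM (nearest 23.5). Psme1 was at 36.8 CPM in the library labelled MIRKO 4 (nearest 22.0), Psme3 at 94.4 CPM in MIGF1RKO 5 (nearest 76.9) and Psmf1 at 21.7 CPM in QKO 3, the lowest of its group (nearest 25.2). In QKO 6 the ratio of Psmb9 to Psmb6 was 10.0% (nearest 2.58%) and that of Psmb10 to Psmb7 was 9.05% (nearest 5.03%), and this library also had the highest immune marker sum of its group.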

How the results depend on the processing

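No paired analysis was possible because replicate numbers only count libraries within a group and name no pairs, so the runs of library numbers were fitted as a block instead. Besides leaving out each of 34 libraries, 12 settings were tried. Of the values, 4936 kept their side of the threshold or, for counts and medians of members, stayed near the main value. A call was lost in 131 and gained in 44, 21 moved otherwise, and 13 turned sign with a call in either fit. Turns of sign without a call in either fit are among the 4936, such as Psmg1 in MIGIRKO (-0.29, and 0.20 with library totals). The cause of these changes was not tested. All 13 turned with library totals and no scaling factor, in MIGIRKO against IRIGFRlox for Faf1 (0.0711), Psmc2 (0.10), Psmd1 (0.12), Psmd2 (0.16), Psmd6 (0.0182), Psmd11 (0.48) and Psme3 (0.40), and in QKO against MIGIRKO for Cct7 (-0.0402), Hspa8 (-0.0904), Psma3 (-0.0136), Psmd2 (-0.14), Psmd12 (-0.0317) and Psme3 (-0.30). With all 12 floxed libraries as control 2 members were called in MIRKO, 18 in MIGIRKO and 1 in QKO, and the MIGIRKO log2 ratios differed by 1.41 (Psmb8 to Psmb5), 1.36 (Psmb9 to Psmb6) and 0.87 (Psmb10 to Psmb7). Leaving out 1 library gave 4 to 12 called members in MIGIRKO against IRIGFRlox (4 without IRIGFRlox 2), 7 to 15 in QKO against MIGIRKO (7 without QKO 3) and 0 to 1 for the QKO change minus the MIGIRKO change (1 without MIGIRKO 1, the library labelled MIGIRKO 6 or QKO 6). For that difference of changes, DESeq2 called 1, library totals 3, upper quartile factors 1, and the fits lacking MIRKO 4 and MIGIRKO 6, or QKO 5 and QKO 6, called 2 each. Without the libraries labelled MIRKO 4 and MIGIRKO 6, 1 member was called in QKO against Qlox and 1 for the MIGIRKO change minus the MIRKO change. Library runs as a block called 17 members in QKO against MIGIRKO. The F test over floxed groups was not run with DESeq2. Low counts limit Psmb8, Psmb9, Psmg3, Psmg4 and Psmc3ip.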
